A study of Mus musculus with 36 samples.

Results

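The granins and the enzymes that process prohormones were followed here in stimulated mouse cortical neurons through 9 genes, chosen by name: the granins Vgf, Scg2, Scg3, Chga and Chgb, the convertase chaperone Scg5, and the processing enzymes Pcsk1, Pcsk2 and Cpe. This choice was made with earlier results of these data known. All 9 were among the 26709 genes of the RNA table and all 9 passed the filter on low values that left 16209 genes for testing. Neurons came from cortices of embryonic day 15 CD-1 mice, were grown for 7 days and then kept silent over 2 h by blocking NMDA receptors with 100 µM AP-5 and sodium channels with 1 µM tetrodotoxin (TTX). They then received 10 ng/ml BDNF (brain-derived neurotrophic factor) or 55 mM KCl for 1, 6 or 10 h, or stayed in AP-5 and TTX as controls of each time, with 2 RNA-seq and 2 ATAC-seq libraries, A and B, in each of the 9 groups. The study calls the libraries of a group biological replicates, but the labels do not say that they came from separate cultures, so the p-values measure the spread between these libraries, and a mixed primary culture cannot show which cells carry a change: fewer cells of a type and less RNA per cell cannot be told apart.

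Granins are acidic secretory proteins that help to form dense-core vesicles and are themselves cut into bioactive peptides, and in neurons they accompany neuropeptides and BDNF on the regulated secretory route. The prohormone convertases encoded by Pcsk1 and Pcsk2 cut precursors at pairs of basic residues, and carboxypeptidase E, the product of Cpe, trims the exposed basic residues. Pcsk2 needs the chaperone 7B2, encoded by Scg5, to mature, and secretogranin III, the product of Scg3, links granin aggregates to the vesicle membrane.

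Cyclic-AMP response elements are the best known control sequences of granin promoters, so the proximal promoters were read. RefSeq (GRCm38.p6) gave the 250 bases before the start of 7 of the 9 genes, and Vgf and Cpe were not matched. The full element TGACGTCA was searched on both strands, as were its core TGACGT, which every full element also holds, the AP-1 sequence TGANTCA and the EGR sequence GCGNGGGCG. The promoters of Scg2 (chr1:79440027-79440276, minus strand), Chgb (chr2:132781392-132781641, plus strand) and Pcsk1 (chr13:75089607-75089856, plus strand) held the full element, that of Chga (chr12:102554691-102554940, plus strand) held the core alone, and that of Pcsk2 (chr2:143545883-143546132, plus strand) held neither. These 5 are printed 5′ to 3′ on the strand of the gene and end at the base before its RefSeq start. The RefSeq starts differ from the GENCODE starts used below for genes and promoter peaks. For Chgb the RefSeq start, chr2:132781642, and the printed window lie inside the gene, which begins at chr2:132781278. Capitals mark TGACGTCA and TGACGT, and in Chgb and Pcsk2 also the EGR sequence on either strand.
Scg2: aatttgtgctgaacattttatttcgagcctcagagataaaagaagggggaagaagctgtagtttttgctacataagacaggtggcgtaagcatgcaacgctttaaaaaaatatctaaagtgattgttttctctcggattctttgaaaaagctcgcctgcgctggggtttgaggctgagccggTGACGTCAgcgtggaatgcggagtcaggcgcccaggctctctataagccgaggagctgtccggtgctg
Chgb: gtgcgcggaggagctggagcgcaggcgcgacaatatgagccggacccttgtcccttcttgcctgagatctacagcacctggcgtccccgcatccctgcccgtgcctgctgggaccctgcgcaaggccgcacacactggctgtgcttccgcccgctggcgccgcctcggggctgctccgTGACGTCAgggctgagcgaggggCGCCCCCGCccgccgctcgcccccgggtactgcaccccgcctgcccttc
Pcsk1: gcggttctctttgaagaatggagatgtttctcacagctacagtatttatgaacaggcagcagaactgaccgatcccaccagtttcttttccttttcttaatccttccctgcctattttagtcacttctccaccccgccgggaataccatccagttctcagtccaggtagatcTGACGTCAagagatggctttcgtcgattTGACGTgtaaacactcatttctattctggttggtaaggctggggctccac
Chga: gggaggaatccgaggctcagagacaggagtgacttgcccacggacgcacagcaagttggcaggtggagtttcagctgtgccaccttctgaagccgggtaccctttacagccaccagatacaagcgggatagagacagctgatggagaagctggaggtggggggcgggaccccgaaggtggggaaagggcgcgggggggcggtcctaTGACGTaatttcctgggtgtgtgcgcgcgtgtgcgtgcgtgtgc
Pcsk2: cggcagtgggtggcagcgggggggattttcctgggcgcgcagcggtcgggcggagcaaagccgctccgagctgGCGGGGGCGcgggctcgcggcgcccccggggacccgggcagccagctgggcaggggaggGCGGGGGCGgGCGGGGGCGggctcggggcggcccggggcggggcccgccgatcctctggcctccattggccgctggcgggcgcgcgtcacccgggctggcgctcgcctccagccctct
The full element began 68 bases before the start in Scg2, 72 in Chgb and 78 in Pcsk1. It was in 3 of the 7 promoters and in 1.55% of the 32851 promoters of the same length. The core was in 5 of 7, Scg5 holding it 175 bases before its start, and in 6.47% of all promoters. The EGR sequence was in 2 of 7 against 4.7%, TGANTCA in 0 of 7 against 6.75% and the CArG box in 0 of 7 against 1.47%. Such matches describe letters in these windows and do not show that a factor binds there.

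Depth was 8.51 M to 36.7 M assigned reads per RNA library (median 11.6 M, M standing for mega), while ATAC libraries had 1.24 M to 6.24 M within peaks (median 3.55 M). Both KCl 6 h RNA libraries differed from each other more than any other pair, with a chi-square per degree of freedom of 36.4 against 2.33 to 9.77, and results that rest on one of them are given with and without it. The control libraries of different times were pooled, as in the model of the study. Between controls of 6 and 1 h, and of 10 and 1 h, limma called 0 of the 16209 genes (0% each), 0 of the 9 genes among them. At an unadjusted p under 0.05, limma counted 164 and 181 genes, edgeR 233 and 197, and DESeq2 56 and 39, with 0 of the 9 genes by each tool. With 2 libraries per time these counts cannot show that the controls were alike. Pcsk1 changed by -0.57 ± 0.27 between controls of 10 and 1 h (limma unadjusted p = 0.0531), with no overlap between the libraries. Neuron markers summed to 40894 to 45303 normalised counts in controls and to 35393 to 44923 in stimulated libraries. Markers of neuroendocrine pituitary or adrenal cells, where granins are also abundant, summed to 12.7 to 43.1 over 4 genes in all libraries, and Prl was at 0 in every control. Microglia markers stayed at or below 165 and endothelial markers at or below 28.1.

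Levels of the 9 genes are given as normalised read counts, that is read counts divided by a size factor of each library, and differences as log2 fold changes ± standard error from limma on log2(normalised count + 1). A gene is said to rise or fall where the p-value adjusted over all 16209 genes (Benjamini-Hochberg) was below 0.1. Per kilobase of exons, the controls ran from Cpe at 4668 ± 133 normalised counts per kb (SD, n = 6) through Scg5 at 1493 ± 143, Scg3 at 1033 ± 30.4, Chgb at 541 ± 78.1, Chga at 421 ± 45.4, Scg2 at 359 ± 50.1, Vgf at 122 ± 35.7 and Pcsk2 at 70.8 ± 6.03 to Pcsk1 at 3.82 ± 1.02. The ranges over the 6 controls overlapped between Chgb and Chga and between Chga and Scg2, and between no other neighbours in this order. In silenced neurons the most abundant of these transcripts per length was thus the carboxypeptidase and the least abundant the convertase Pcsk1.

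With BDNF at 1 h, all of the 9 genes but Chgb and Pcsk2 rose. The count of 7 compares with 21.3% of all genes, and 0 fell compared with 19.0% (limma, with 0 also at an unadjusted p under 0.05 and by edgeR and DESeq2). At 6 h 5 rose, compared with 22.1% of all genes, and 1 fell, compared with 21.1%. At 10 h 4 rose, compared with 21.1%, and 1 fell, compared with 19.5%. The median change of the 9 was 0.43, 0.34 and 0.20 on the log2 scale at 1, 6 and 10 h, beside medians of 0.00, -0.00 and -0.01 over all genes. With KCl, 7 rose at 1 h (26.5% of all genes) and 0 fell (28.2%; limma, with 0 also at an unadjusted p under 0.05 and by edgeR and DESeq2). At 6 h 7 rose (33.4%) and 1 fell (33.1%), and at 10 h 8 rose (29.0%) and 0 fell (28.2%), again 0 by each tool with and without adjustment. The median change under KCl was 0.48, 0.53 and 0.71, beside 0.00, 0.01 and 0.01 over all genes. All 6 comparisons use the same 6 controls. Because the 9 genes were chosen with earlier results known, the shares over all genes, here and below, are a description and not a test of the set.

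**Figure D1:**
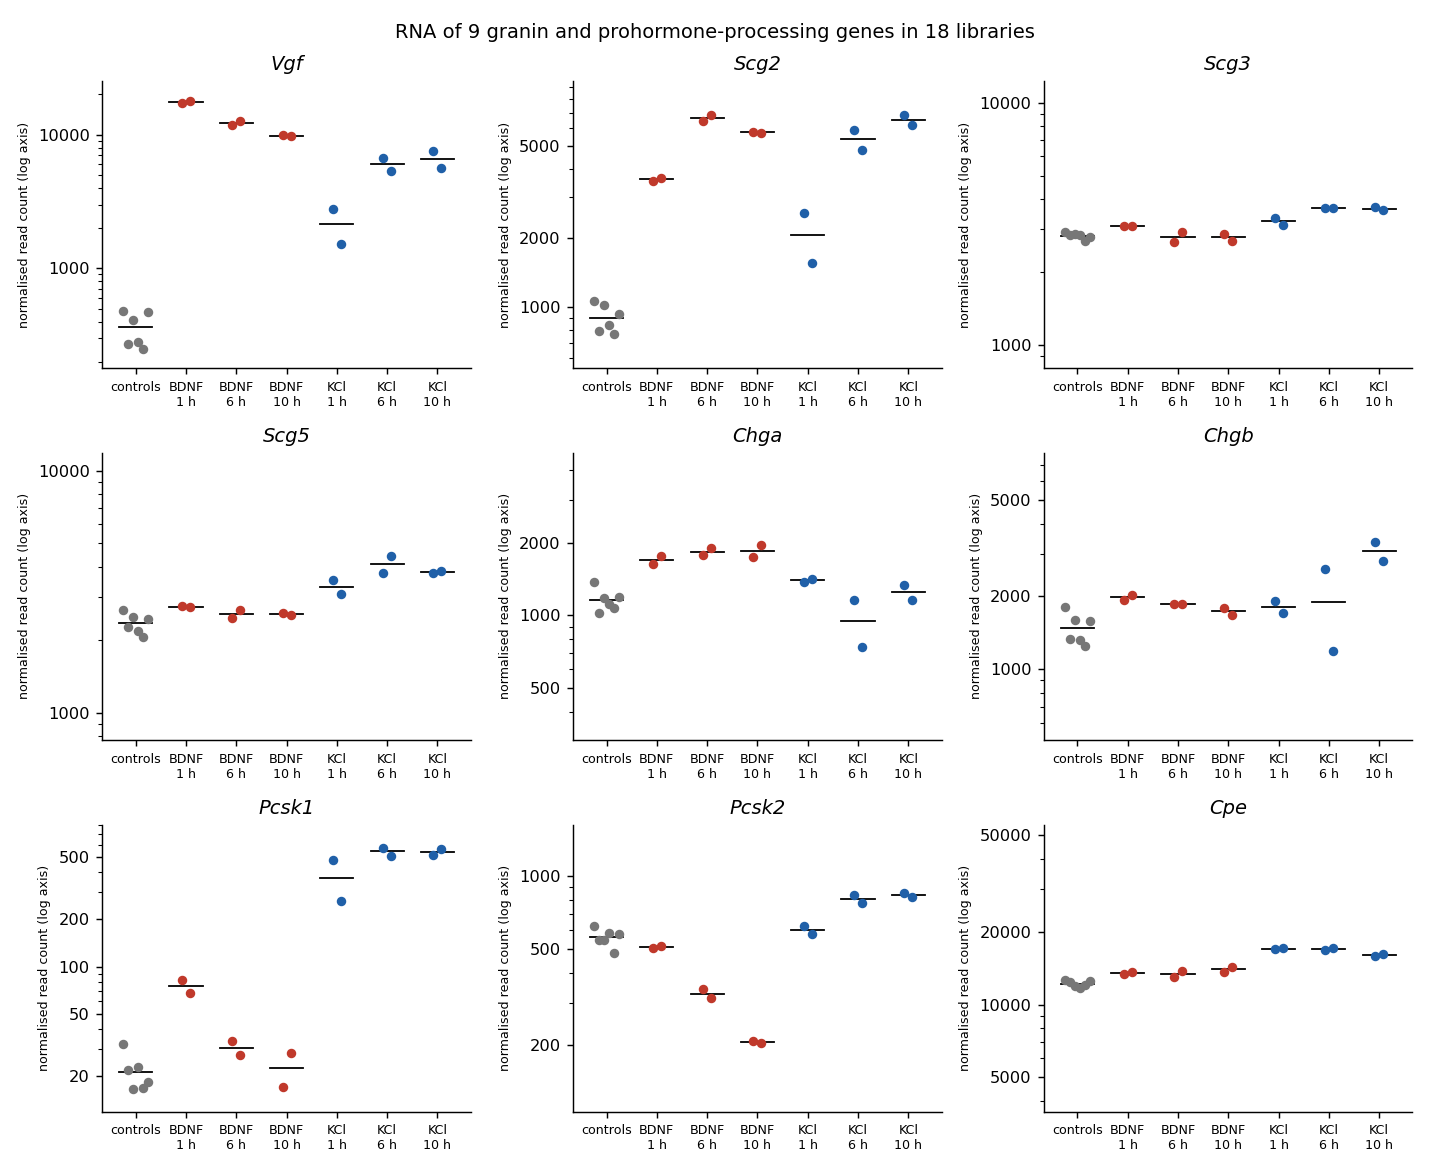
Normalised read count (log axis) of each of the 9 genes in the 18 RNA libraries, grouped as the 6 controls, BDNF at 1, 6 and 10 h and KCl at 1, 6 and 10 h, with a point per library and a line at each group mean. Vgf and Scg2 lie above the controls in all 12 stimulated libraries, Pcsk1 lies far above them under KCl and near them under BDNF at 10 h, and Pcsk2 lies below them under BDNF at 6 and 10 h and above them under KCl at 6 and 10 h.

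Vgf (ENSMUSG00000037428, chr5:137026392-137033351 in mm10, plus strand), a granin-like precursor known to be induced by neurotrophins, had the largest rise of the 9. The 6 controls gave 251 normalised counts at the lowest, 346 at the median and 481 at the highest. The BDNF libraries gave 17183 and 17977 (1 h), 11851 and 12560 (6 h) and 9935 and 9743 (10 h). The KCl libraries gave 2792 and 1526 (1 h), 6736 and 5310 (6 h) and 7497 and 5672 (10 h). Every stimulated library was above every control, the BDNF libraries were highest at 1 h and the KCl libraries lowest at 1 h. The log2 fold changes were 5.65 ± 0.29, 5.13 ± 0.29 and 4.81 ± 0.29 with BDNF (limma adjusted p = 2.72e-08, 8.18e-08 and 2.24e-07), which is 50.3-fold at 1 h. With KCl they were 2.56 ± 0.29, 4.10 ± 0.29 and 4.22 ± 0.29 (adjusted p = 1.72e-05, 1.76e-07 and 2.62e-07), which is 5.91-fold at 1 h and 18.7-fold at 10 h. Among the 16209 genes this was the 8th, 5th and 5th highest log2 fold change with BDNF at 1, 6 and 10 h, and the 89th, 17th and 11th with KCl.

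Scg2 (ENSMUSG00000050711, chr1:79434669-79440120, minus strand) encodes secretogranin II, the precursor of secretoneurin, and its promoter holds the full element printed above. Its controls gave 762, 887 and 1062 normalised counts at the lowest, median and highest. With BDNF the libraries gave 3542 and 3641 (1 h), 6447 and 6801 (6 h) and 5765 and 5727 (10 h). With KCl they gave 2558 and 1557, 5865 and 4838, and 6850 and 6151 at these times. All 12 stimulated libraries were above all controls, and under both stimuli the 6 and 10 h libraries were above those of 1 h. Log2 fold changes were 2.00 ± 0.16, 2.89 ± 0.16 and 2.68 ± 0.16 with BDNF (limma adjusted p = 3.85e-07, 1.01e-08 and 3.44e-08) and 1.16 ± 0.16, 2.57 ± 0.16 and 2.86 ± 0.16 with KCl (adjusted p = 4.48e-05, 9.27e-09 and 6.82e-09). At their highest these are 7.39-fold with BDNF at 6 h and 7.25-fold with KCl at 10 h.

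Chga (ENSMUSG00000021194, chr12:102554969-102565028, plus strand) encodes chromogranin A, the first granin described in adrenal chromaffin granules. The controls gave 1025, 1145 and 1379 normalised counts. With BDNF the libraries gave 1633 and 1755 (1 h), 1776 and 1894 (6 h) and 1752 and 1947 (10 h), all above the controls. With KCl they gave 1377 and 1416 (1 h), 1154 and 739 (6 h) and 1343 and 1156 (10 h), of which 1 library at 1 h was above and 1 at 6 h below the control range. Chga rose with BDNF by 0.55 ± 0.13, 0.67 ± 0.13 and 0.68 ± 0.13 on the log2 scale (limma adjusted p = 0.00294, 6.27e-04 and 7.12e-04). Under KCl the log2 fold changes were 0.27 ± 0.13, -0.32 ± 0.13 and 0.11 ± 0.13 (adjusted p = 0.0895, 0.0387 and 0.504). The KCl 1 h call was kept in 5 of 7 alternatives (adjusted p = 0.12 with TMM scaling of the libraries and 0.312 with only the 2 controls of the same time) and with 9 of 18 libraries left out in turn, and was lost without control 1 h B (adjusted p = 0.141), control 6 h A (0.107) or B (0.127), control 10 h A (0.137), BDNF 1 h A or B (0.101 each), BDNF 6 h A (0.101), and KCl 1 h A (0.221) or B (0.287). The KCl 6 h fall rests on library B, without which the log2 fold change was -0.00 (adjusted p = 0.998), against -0.64 without library A (6.27e-05), and with controls of the same time its adjusted p was 0.137.

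Chgb (ENSMUSG00000027350, chr2:132781278-132795079, plus strand) encodes chromogranin B, and its promoter also holds the full element. The controls gave 1244, 1463 and 1801 normalised counts. With BDNF the libraries gave 1939 and 2026, 1854 and 1869, and 1796 and 1682 at 1, 6 and 10 h. With KCl they gave 1920 and 1710, 2590 and 1191, and 3365 and 2797. The BDNF 1 and 6 h libraries and the KCl 10 h libraries were above all controls, while the KCl 6 h pair lay on both sides of the control range. Only the KCl 10 h change passed the test, at 1.06 ± 0.23 on the log2 scale (limma adjusted p = 0.00194), which is 2.09-fold. The other log2 fold changes were 0.43 ± 0.23, 0.34 ± 0.23 and 0.24 ± 0.23 with BDNF (adjusted p = 0.172, 0.269 and 0.449) and 0.30 ± 0.23 and 0.26 ± 0.23 with KCl at 1 and 6 h (adjusted p = 0.3 and 0.347). These p-values depend on the KCl 6 h pair. Without library A or B of that pair, BDNF 1 h was called (adjusted p = 0.00945 and 0.00955), BDNF 6 h was called (0.0318 and 0.032), KCl 1 h was called (0.0431 and 0.0434), and without library B the KCl 6 h change was 0.82 (4.66e-04).

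Scg3 (ENSMUSG00000032181, chr9:75643189-75684056, minus strand), which encodes secretogranin III, moved little. The controls gave 2682, 2842 and 2926 normalised counts, the BDNF libraries 3098 and 3106, 2665 and 2918, and 2880 and 2676, and the KCl libraries 3351 and 3117, 3690 and 3662, and 3696 and 3595 at 1, 6 and 10 h. All KCl libraries were above all controls, and the BDNF libraries were so at 1 h alone. With KCl, Scg3 rose by 0.19 ± 0.06, 0.38 ± 0.06 and 0.37 ± 0.06 on the log2 scale (limma adjusted p = 0.00708, 5.56e-06 and 1.44e-05). With BDNF the changes were 0.13 ± 0.06, -0.02 ± 0.06 and -0.03 ± 0.06 (adjusted p = 0.0726, 0.813 and 0.754). The BDNF 1 h call was lost in 4 of 7 alternatives (adjusted p = 0.102 to 0.354) and without control 10 h A (0.117) or B (0.105) or BDNF 1 h A (0.262) or B (0.248), and the KCl 1 h call was lost without KCl 1 h A (0.14).

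Scg5 (ENSMUSG00000023236, chr2:113776362-113829121, minus strand), the gene of the Pcsk2 chaperone 7B2, gave 2052, 2346 and 2658 normalised counts in controls. With BDNF it gave 2760 and 2721, 2469 and 2662, and 2579 and 2537 at 1, 6 and 10 h, and with KCl 3518 and 3091, 3791 and 4446, and 3767 and 3860. All KCl libraries were above all controls, whereas BDNF libraries were so at 1 h and overlapped with them later. It rose with KCl by 0.50 ± 0.08, 0.81 ± 0.08 and 0.71 ± 0.08 on the log2 scale (limma adjusted p = 3.15e-05, 2.54e-08 and 3.76e-07). With BDNF the changes were 0.23 ± 0.08 (adjusted p = 0.0339), 0.14 ± 0.08 (0.209) and 0.13 ± 0.08 (0.227). The BDNF 1 h call was lost against same-time controls (0.305) and without BDNF 1 h A (0.2) or B (0.137), and the later values were called without control 1 h A (0.0814 and 0.0911).

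Pcsk1 (ENSMUSG00000021587, chr13:75089826-75134861, plus strand) encodes prohormone convertase 1/3, and its promoter holds the full element and a further core. It was the scarcest of the 9 in silenced neurons, at 16.6, 20.1 and 31.9 normalised counts. With KCl the libraries gave 478 and 262 (1 h), 575 and 511 (6 h) and 517 and 562 (10 h). With BDNF they gave 82.1 and 67.9 (1 h), 33.3 and 27.4 (6 h) and 17 and 28 (10 h). The KCl libraries were all far above the controls, while BDNF libraries were above them at 1 h, partly within their range at 6 h and wholly within it at 10 h. KCl raised Pcsk1 by 4.02 ± 0.24, 4.63 ± 0.24 and 4.63 ± 0.24 on the log2 scale (limma adjusted p = 2.64e-11, 2.80e-12 and 5.19e-12), that is 16.2-, 24.8- and 24.7-fold, and these were the 30th, 12th and 7th highest log2 fold changes of the 16209 genes. With BDNF it rose by 1.79 ± 0.24 at 1 h (adjusted p = 5.60e-06), 3.46-fold, and the later changes were 0.52 ± 0.24 (0.0973) and 0.06 ± 0.24 (0.865). The BDNF 6 h call held in 1 of 7 alternatives (adjusted p = 0.393 with edgeR and 0.266 with DESeq2) and with 7 of 18 libraries left out in turn, with adjusted p from 0.102 to 0.442 without control 1 h B, either control of 6 or 10 h, or either library of BDNF 1 h, BDNF 6 h or KCl 10 h.

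Pcsk2 (ENSMUSG00000027419, chr2:143546156-143816285, plus strand) encodes prohormone convertase 2, the other main neuronal convertase, and was the only one of the 9 that fell with BDNF. The controls gave 482, 563 and 625 normalised counts. With BDNF the libraries gave 508 and 514 (1 h), 341 and 315 (6 h) and 208 and 204 (10 h). With KCl they gave 621 and 576, 837 and 779, and 854 and 821. The 1 h libraries of both stimuli lay within the control range, and at 6 and 10 h the BDNF libraries were below all controls and the KCl libraries above them. The log2 fold changes with BDNF were -0.13 ± 0.08 (limma adjusted p = 0.249), -0.77 ± 0.08 (1.91e-07) and -1.44 ± 0.08 (3.08e-11), a 2.7-fold fall at 10 h and the 37th lowest value of the 16209 genes. With KCl they were 0.10 ± 0.08 (0.333), 0.53 ± 0.08 (8.77e-06) and 0.58 ± 0.08 (4.47e-06). The BDNF 1 h value was called without control 10 h A (-0.17, adjusted p = 0.0866). Antisense genes within it reached at most 38.4 (Pcsk2os1) and 11.6 (Pcsk2os2) normalised counts, and whether reads were assigned by strand is not given in the sources used here.

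Cpe (ENSMUSG00000037852, chr8:64592542-64693054, minus strand), the gene of carboxypeptidase E, stayed the most abundant of the enzymes. The controls gave 11705, 12200 and 12590 normalised counts, the BDNF libraries 13322 and 13621, 13026 and 13817, and 13633 and 14336, and the KCl libraries 16908 and 17076, 16858 and 17076, and 15923 and 16193 at 1, 6 and 10 h. Every stimulated library was above every control, by a small margin with BDNF. The rises were 0.15 ± 0.05, 0.14 ± 0.05 and 0.20 ± 0.05 on the log2 scale with BDNF (limma adjusted p = 0.0256, 0.0303 and 0.00365) and 0.48 ± 0.05, 0.48 ± 0.05 and 0.40 ± 0.05 with KCl (adjusted p = 4.55e-08, 3.20e-08 and 8.14e-07), at most 1.4-fold. The BDNF 1 h call was lost against same-time controls (0.238) and without BDNF 1 h A (0.11) or B (0.19), and the BDNF 6 h call without BDNF 6 h B (0.327).

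**Figure D2:**
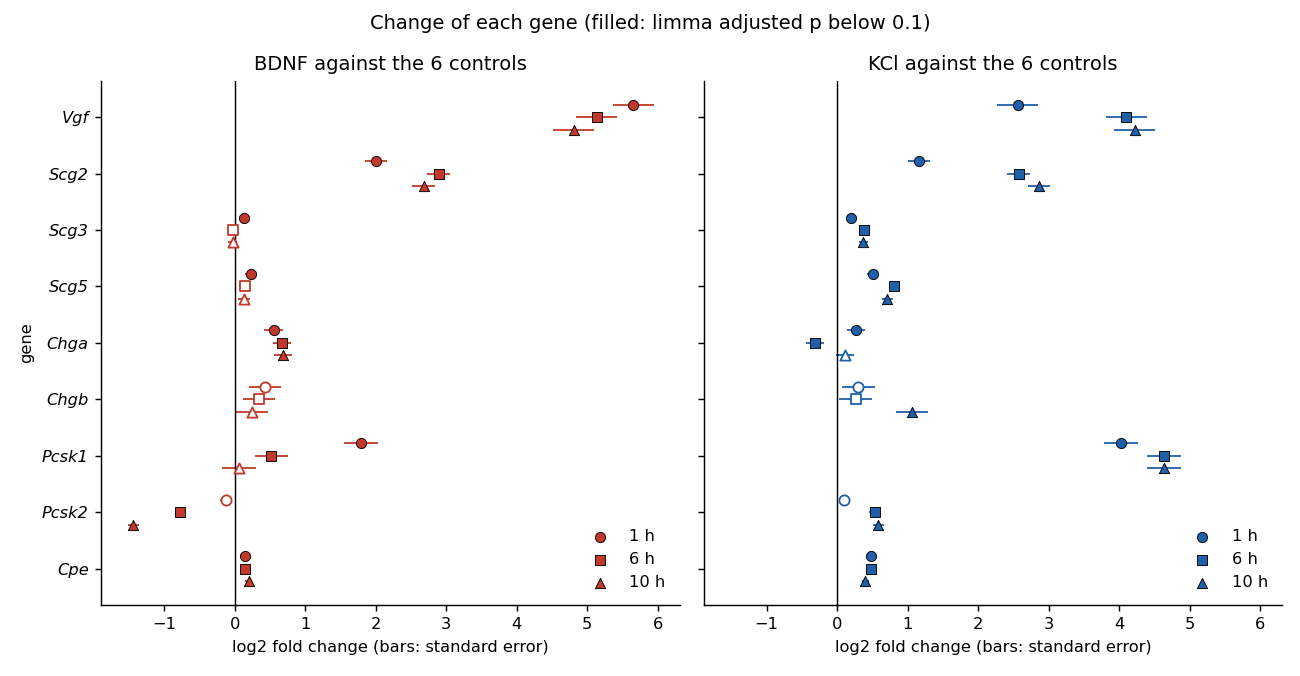
Log2 fold change against the 6 controls of each gene with BDNF (left) and KCl (right) at 1 h (circles), 6 h (squares) and 10 h (triangles), with bars of 1 standard error and filled points where the limma adjusted p was below 0.1. Vgf reaches 5.65 with BDNF at 1 h and 4.22 with KCl at 10 h, Pcsk1 reaches 4.63 with KCl, and Pcsk2 goes to -1.44 with BDNF at 10 h.

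Within the controls, the libraries control 1 h A, 6 h A and 10 h B were the 3 highest for Vgf, Scg2, Scg5, Chga and Chgb, and not for Scg3, Pcsk1, Pcsk2 or Cpe. For Vgf the lowest of these 3 gave 410 normalised counts and the highest of the other 3 gave 281. This order was noticed in the values and was not tested.

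Both stimuli were next compared directly at each time, which needs no control library. At 1 h 6 of the 9 genes differed, compared with 42.8% of all genes, at 6 h 7 (57.3%), and at 10 h 7 (45.0%). Vgf was higher with BDNF by 3.09 ± 0.36 at 1 h (limma adjusted p = 3.25e-05), 8.51-fold, and by 1.03 ± 0.36 at 6 h (0.0317), whereas at 10 h the difference was 0.59 ± 0.36 (0.223). The 6 h difference was not called without BDNF 6 h B (0.113) or KCl 6 h B (0.154). Scg2 was higher with BDNF by 0.85 ± 0.20 at 1 h (0.00422), or by 0.49 without KCl 1 h B (0.0367), and its later differences were 0.31 ± 0.20 (0.209, called at 0.0615 and 0.0613 without KCl 1 h A or B) and -0.18 ± 0.20 (0.525). For both granins the estimate was highest at 1 h. Chga was higher with BDNF by 0.99 ± 0.16 at 6 h (5.37e-05) and by 0.57 ± 0.16 at 10 h (0.00886), with a difference of 0.28 ± 0.16 at 1 h (0.187, called at 0.0402 without KCl 6 h A or B).

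The processing enzymes went the other way, all being higher with KCl. For Pcsk1 the log2 differences BDNF minus KCl were -2.23 ± 0.29, -4.12 ± 0.29 and -4.56 ± 0.29 at 1, 6 and 10 h (limma adjusted p = 3.95e-06, 7.04e-10 and 2.80e-10), that is 4.69-, 17.4- and 23.7-fold. For Pcsk2 they were -0.23 ± 0.10 (0.0819), -1.30 ± 0.10 (9.85e-10) and -2.02 ± 0.10 (2.15e-12), 4.06-fold at 10 h. The 1 h call for Pcsk2 was lost with DESeq2 (0.111), with no filter (0.116) and without BDNF 1 h A (0.231), BDNF 1 h B (0.184) or KCl 1 h A (0.305). Cpe differed by -0.33 ± 0.06, -0.34 ± 0.06 and -0.20 ± 0.06 (1.32e-04, 7.10e-05 and 0.0119), the last not called without BDNF 10 h A (0.109). The chaperone Scg5 differed by -0.27 ± 0.10 (0.0429), -0.68 ± 0.10 (8.74e-06) and -0.58 ± 0.10 (1.10e-04), the first not called without BDNF 1 h A (0.125), BDNF 1 h B (0.151) or KCl 1 h A (0.305).

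Scg3 differed between stimuli by -0.06 ± 0.07 (limma adjusted p = 0.54), -0.40 ± 0.07 (5.25e-05) and -0.39 ± 0.07 (1.11e-04) at 1, 6 and 10 h. Chgb differed by 0.13 ± 0.28 (0.756), 0.08 ± 0.28 (0.822) and -0.82 ± 0.28 (0.0353). The 6 h value of Chgb turned with the KCl 6 h libraries, to 0.64 without library A (0.00702) and to -0.48 without library B (0.0403). Its 10 h call was lost without BDNF 10 h B (0.136) or KCl 10 h A (0.163).

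Between times of one stimulus, BDNF 6 h differed from 1 h in 3 genes, compared with 33.6% of all genes: Scg2 was higher by 0.88 ± 0.20 (limma adjusted p = 0.00482), Pcsk1 lower with a change of -1.28 ± 0.29 (0.00255) and Pcsk2 lower with a change of -0.64 ± 0.10 (5.13e-05). From 6 to 10 h of BDNF only Pcsk2 changed among the 9, by -0.67 ± 0.10 (0.0038), compared with 0.216% of all genes, and this call was lost without BDNF 6 h A (0.16) or BDNF 10 h B (0.145). With KCl, 7 genes differed between 6 and 1 h, compared with 59.6% of all genes. Vgf rose by 1.53 ± 0.36 (0.00349) and Scg2 by 1.42 ± 0.20 (4.18e-05), while Chga changed by -0.60 ± 0.16 (0.00421), or by -0.92 without KCl 6 h A (5.69e-06) and -0.27 without KCl 6 h B (0.0883). The other 4 changes were 0.19 ± 0.07 for Scg3 (0.0279), 0.32 ± 0.10 for Scg5 (0.0117), 0.61 ± 0.29 for Pcsk1 (0.0827) and 0.43 ± 0.10 for Pcsk2 (0.00103). Those of Scg3, Scg5 and Pcsk1 were not called without KCl 1 h B (0.203, 0.148 and 0.686), that of Pcsk1 was 1.05 without KCl 1 h A (0.0117) and 0.18 without B, that of Scg5 was lost also without KCl 6 h B (0.154), and that of Pcsk1 was lost also without KCl 6 h A (0.235) or B (0.125). Chgb, at -0.04 ± 0.28 (0.91), became -0.60 without KCl 6 h A (0.00985) and 0.52 without KCl 6 h B (0.0264).

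From 6 to 10 h of KCl 2 genes were called, compared with 22.5% of all genes, Chga at 0.43 ± 0.16 (limma adjusted p = 0.0724) and Chgb at 0.80 ± 0.28 (0.071). Without KCl 6 h A these were 0.75 (3.56e-04) and 1.36 (1.16e-04), without KCl 6 h B 0.11 (0.687) and 0.24 (0.471), without KCl 10 h A 0.32 (0.39) and 0.67 (0.328), and without KCl 10 h B Chgb was at 0.94 (0.101). The change from 1 to 6 h itself differed between stimuli in 6 genes, compared with 48.1% of all genes. BDNF minus KCl, it was -2.06 ± 0.51 for Vgf (0.00663), -1.89 ± 0.41 for Pcsk1 (9.88e-04), -1.07 ± 0.14 for Pcsk2 (3.63e-06), -0.41 ± 0.14 for Scg5 (0.0246), -0.34 ± 0.10 for Scg3 (0.00783) and 0.71 ± 0.22 for Chga (0.0166), which was 0.39 without KCl 6 h B (0.0697). That of Scg5 was not called without KCl 1 h B (0.125) or KCl 6 h B (0.115), and that of Scg2 (-0.53 ± 0.28, 0.152) was called without KCl 1 h A (-0.89, 0.00313). That of Chgb (-0.05 ± 0.39, 0.941) was 0.51 without KCl 6 h A (0.0822) and -0.61 without KCl 6 h B (0.0476). From 6 to 10 h only Pcsk2 was called, at -0.72 ± 0.14 (0.00827), compared with 7.66% of all genes, and without KCl 6 h A Chga (-0.74, 0.00647) and Chgb (-1.46, 0.00127) were called too.

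Per length, stimulation changed the order of the 9 transcripts. Under BDNF at 1 h Vgf stood at 5913 ± 189 normalised counts per kb (SD, n = 2), above Cpe at 5164 ± 81.1, with no overlap between the libraries of either gene. At 6 h of BDNF Vgf was second at 4105 ± 169 and Scg2 followed at 2634 ± 99.4. Under KCl at 10 h Scg2 was second at 2585 ± 196, Scg5 next at 2430 ± 41.8 and then Vgf at 2215 ± 434, and these 3 ranges overlapped. The level of Vgf per kb divided by that of Scg2 per kb was 0.279 to 0.429 in controls, 4.1 to 4.18 under BDNF at 1 h, 1.44 to 1.46 under BDNF at 10 h, and between 0.78 and 0.972 in all 6 KCl libraries. The same quotient for Pcsk1 over Pcsk2 was 0.0428 to 0.072 in controls, 0.187 to 0.228, 0.123 to 0.138 and 0.115 to 0.194 under BDNF at 1, 6 and 10 h, and 0.642 to 1.09, 0.925 to 0.97 and 0.854 to 0.966 under KCl. Under KCl both convertase transcripts were thus present at about equal levels per length, and under every other condition Pcsk2 was the more abundant.

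**Figure D3:**
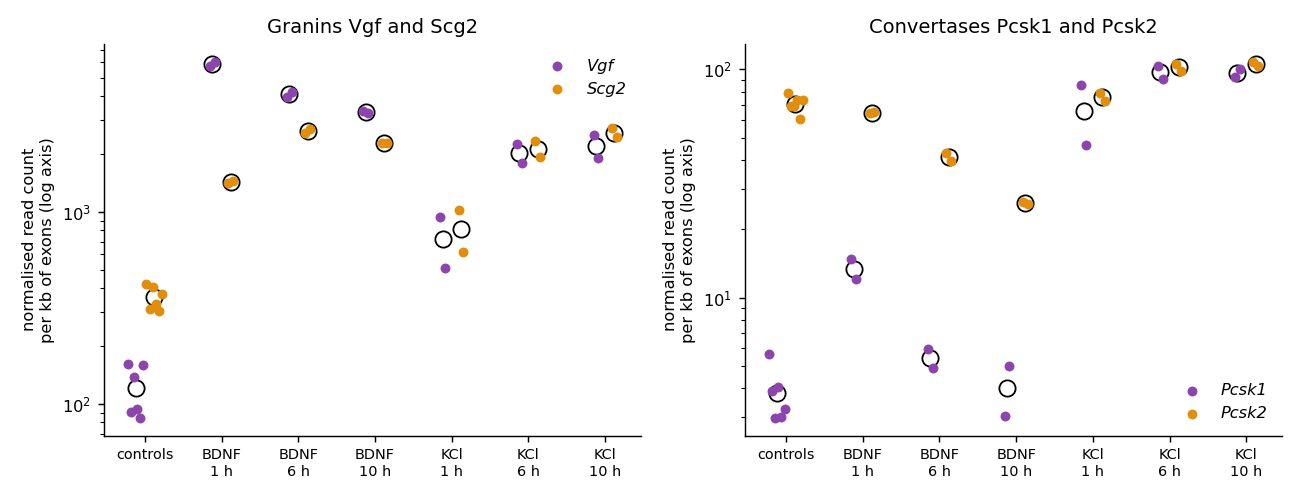
Normalised read count per kb of exons (log axes) of the granins Vgf and Scg2 (left) and the convertases Pcsk1 and Pcsk2 (right) in each library, by group, with small points for libraries and open circles for group means. Vgf lies below Scg2 in controls and above it under BDNF, and Pcsk1 comes up to Pcsk2 only under KCl, at 96.9 against 102 per kb at 6 h.

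Together the 9 genes took 0.176% to 0.195% of all assigned reads in controls, 0.341% to 0.349% under BDNF at 1 h and 0.324% to 0.344% under KCl at 10 h. In controls Cpe gave 53.5% to 58.5% of these reads and Vgf 1.22% to 2.11%. Under BDNF at 1 h Vgf gave 39% to 39.6% and Cpe 30% to 30.2%, whereas under KCl at 10 h Vgf gave 13.9% to 17.1%, Scg2 15.1% to 15.6% and Cpe 36.3% to 39.7%.

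As a description over the 18 RNA libraries, which share groups and controls, the Pearson correlation of log2(normalised count + 1) was highest among the 9 for Vgf with Scg2, Scg3 with Scg5 and Scg5 with Pcsk1 (0.94 each). It was 0.93 for Scg3 with Pcsk1 and 0.92 for Pcsk1 with Cpe, and it was -0.70 for Chga with Pcsk2. Outside the 9, the most alike patterns were those of Arpc5 (0.974) and Pitpna (0.971) for Vgf, Aldoa (0.985) and its near copy Aldoart2 (0.971) for Scg2, Pard6a (0.969) and Crem (0.965) for Pcsk1, and Stk32b (0.977) and Ptprk (0.957) for Pcsk2. For Scg3 they were Col10a1 (0.966) and Dner (0.964), for Scg5 Serinc1 (0.974) and Rian (0.971), for Cpe Oaz1 (0.969) and its pseudogene Oaz1-ps (0.957), and for Chga 6030419C18Rik (0.957). Chgb had no gene above 0.9, its nearest being Slc38a10 (0.89) and Rasl10b (0.884).

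A set of 3 lists places the 9 among genes of the same route. These lists too were chosen with earlier results of these data known, so their counts are descriptive. The first list holds genes of other convertases, carboxypeptidases and peptide-modifying enzymes, and also Pcsk1n, which is not an enzyme gene. Of its 13 tested genes, BDNF raised 2, 4 and 5 and lowered 3, 2 and 2 at 1, 6 and 10 h, and KCl raised 4, 8 and 6 and lowered 3, 2 and 2. Over all genes, BDNF raised 21.3%, 22.1% and 21.1% and lowered 19.0%, 21.1% and 19.5%, and KCl raised 26.5%, 33.4% and 29.0% and lowered 28.2%, 33.1% and 28.2%, so that several of these counts were near those shares. The median log2 fold change of this list was 0.38 with KCl at 6 h and between -0.06 and 0.13 in the other 5 comparisons. Pam, which encodes the enzyme that amidates peptide ends, gave 3407 and 3561 normalised counts with KCl at 6 h compared with 1203 to 1394 in controls, a change of 1.44 ± 0.06 (limma adjusted p = 6.21e-14). Pcsk5, a convertase of the general secretory route, changed by 1.46 ± 0.11 with KCl at 10 h (3.10e-10). The convertases Pcsk4 and Pcsk6 fell with KCl, with changes of -1.56 ± 0.20 at 10 h (1.64e-06) and -0.94 ± 0.15 at 6 h (1.77e-05). Pcsk4 fell with BDNF at 10 h too (-0.89 ± 0.20, 0.00195). Pcsk6 rose with BDNF at 6 h (0.46 ± 0.15, 0.0227) and with KCl at 1 h (0.31 ± 0.15, 0.0986).

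Of 15 genes of dense-core vesicle formation and release, BDNF raised 3, 3 and 5 and lowered 1, 4 and 3 at these times, most of them near the shares over all genes just given. KCl raised 8, 8 and 11 and lowered 0, 2 and 1, with median log2 fold changes of 0.30, 0.24 and 0.24 beside 0.00 to 0.01 over all genes. Ptprn, the gene of a vesicle membrane protein also called IA-2, gave 2297 and 2225 normalised counts with BDNF at 6 h compared with 534 to 831 in controls, a change of 1.79 ± 0.24 (limma adjusted p = 8.58e-05). Syt10, a synaptotagmin calcium sensor, changed by 1.91 ± 0.28 at that time (1.55e-05). Both rose less with KCl at 6 and 10 h, Ptprn by 0.69 ± 0.24 (0.0231) and 1.14 ± 0.24 (0.00152). Syt10 changed by 0.60 ± 0.28 (0.0704) and 0.72 ± 0.28 (0.0383) at these KCl times. Rph3a, a Rab3 effector, fell with BDNF at 10 h (-1.40 ± 0.13, 2.00e-07) and rose with KCl at 1 h (0.30 ± 0.13, 0.0572). The priming factor Cadps2 fell with KCl at 6 h (-0.49 ± 0.12, 0.00127) and with BDNF at 6 h (-0.49 ± 0.12, 0.00284). It rose with KCl at 1 h (0.36 ± 0.12, 0.0174).

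Among 15 tested genes of peptide cargo, BDNF raised 8, 11 and 10 and lowered 1, 2 and 1, and KCl raised 10, 12 and 11 and lowered 0, 0 and 2. The counts of 0 in these lists under KCl were 0 by limma, edgeR and DESeq2, also at an unadjusted p under 0.05. The median log2 fold changes were 0.47, 0.73 and 0.93 under BDNF, and under KCl they were 0.45, 1.08 and 1.13, beside -0.01 to 0.01 over all genes. The shares over all genes were 21.1% to 22.1% higher with BDNF and 26.5% to 33.4% higher with KCl. Gal, the galanin precursor, gave 138 and 147 normalised counts with BDNF at 10 h compared with 0 to 1.96 in controls, a fitted change of 6.25 ± 0.41 (limma adjusted p = 2.07e-10). Crh, the precursor of corticotropin-releasing hormone, gave 182 and 132 with KCl at 10 h compared with 0 to 3.92, a fitted change of 5.80 ± 0.79 (2.99e-05). Both fitted changes depend on the added count of 1, since controls were near 0. All control values of both genes were under the filter mean of 10, so only high stimulated libraries brought them into the test. Their rises are thus not independent of the filter, and both genes are among the risers counted above. Gal rose with KCl too, at 1 h (1.91 ± 0.41, 5.02e-04) and 6 h (1.10 ± 0.41, 0.0229). Crh rose with BDNF too, at 6 h (4.02 ± 0.79, 0.00122) and 10 h (3.52 ± 0.79, 0.00378). Adcyap1, the PACAP precursor, fell with BDNF at 6 h (-1.50 ± 0.24, 4.53e-05) but rose with KCl. Its changes with KCl at 1, 6 and 10 h were 0.98 ± 0.24, 2.89 ± 0.24 and 3.24 ± 0.24 (0.00177, 2.03e-09 and 8.15e-10). Nmb, the neuromedin B precursor, fell with KCl at 10 h (-0.70 ± 0.22, 0.0108).

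**Figure D4:**
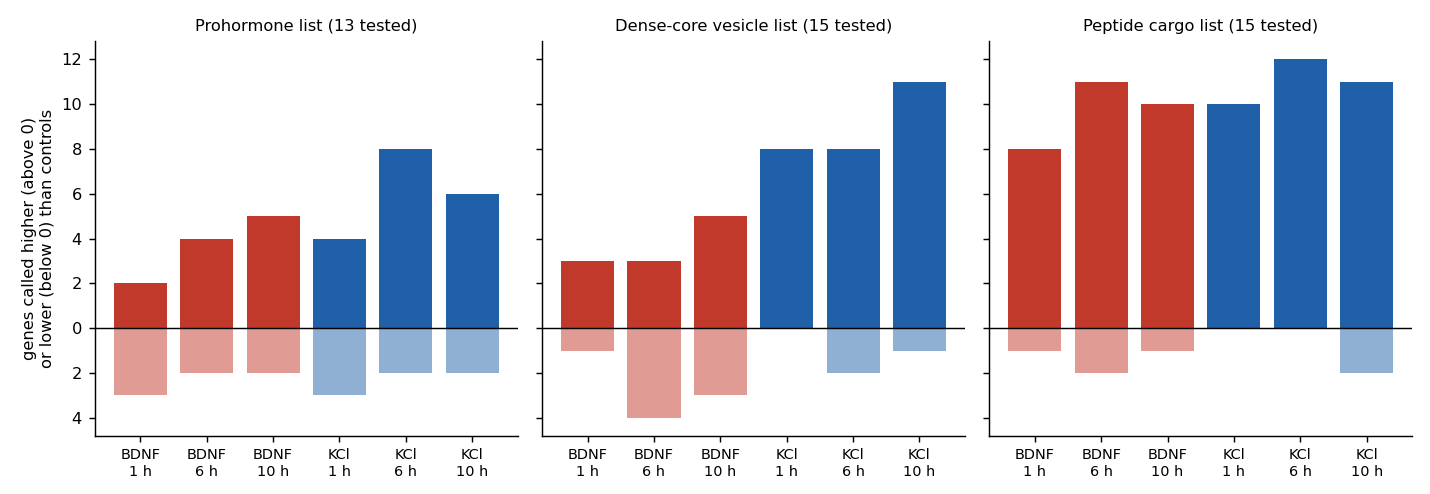
Number of genes called higher (bars above 0) or lower (bars below 0) than the 6 controls in each of the 6 comparisons, for the list of other prohormone genes, the dense-core vesicle list and the peptide cargo list. In the peptide cargo list 8 to 12 of 15 genes rose in every comparison, and in the dense-core vesicle list 8 to 11 of 15 rose with KCl and 3 to 5 with BDNF, where 26.5% to 33.4% and 21.1% to 22.1% of all genes rose. The lists were chosen with earlier results of these data known.

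Markers of other cells moved with the stimuli too. The 3 GABA neuron markers, whose cells are rich in peptides, summed to 4593 to 5971 normalised counts in controls and to 6093 to 9808 in stimulated libraries, and all 3 rose in every comparison other than KCl 1 h, where 2 did. The 5 astrocyte and radial glia markers summed to 15842 to 18334 in controls, 14989 to 15288 with BDNF at 6 h, 12185 to 14852 with KCl at 6 h and 12981 to 13697 with KCl at 10 h, where all 5 fell. The 2 markers of proliferating cells summed to 3352 to 5730 in controls and to 2287 to 3188 in the 6 and 10 h stimulated libraries. The part of these shifts in the changes of the 9 genes was not tested.

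Chromatin accessibility was the second readout. A peak was linked to a gene where its nearest protein-coding start was that gene's start, within 50 kb, which gave 24 peaks: 9 at promoters (1000 bp before to 100 bp after a transcript start), 9 in introns, 1 in an exon and 5 outside the genes. Values are read counts per peak after LOESS scaling, and differences are log2 fold changes from edgeR's quasi-likelihood test, called where the p-value adjusted over 56383 peaks was below 0.1. With BDNF 3, 2 and 2 of the 24 peaks were called at 1, 6 and 10 h, compared with 17.3%, 10.6% and 9.36% of all peaks. With KCl 4, 2 and 2 were called, compared with 8.34%, 7.49% and 7.87%. In all, 8 peaks were called in at least 1 of these 6 comparisons.

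At the promoters of Vgf, Scg2 and Pcsk1, whose RNA rose most, accessibility differed far less from controls than RNA did, with 1 exception. For Pcsk1 with BDNF at 10 h the promoter change was 0.33 ± 0.23 (edgeR adjusted p = 0.505) and the RNA change 0.06 ± 0.24. The Vgf promoter peak (chr5:137029813-137030547, over an internal transcript start 3.79 kb from the first) gave 103, 116 and 133 counts at the lowest, median and highest control and 112 and 138 with BDNF at 1 h, within or next to the control range (0.08 ± 0.16, edgeR adjusted p = 0.826). With BDNF at 6 h it gave 93.6 and 85.2, below all controls, a change of -0.41 ± 0.17 that did not pass the test (0.149). The Pcsk1 promoter peak (chr13:75089660-75090751) gave 50.2, 76.7 and 84.1 in controls and 110 and 92.1 with KCl at 1 h, both above the controls (0.52 ± 0.20, 0.112). The Pcsk2 promoter peak (chr2:143545542-143546473), whose centre holds the 3 EGR sequences printed above, changed by 0.16 ± 0.12 with BDNF at 10 h (0.531), the time at which its RNA was lowest. The Cpe promoter peak (chr8:64692512-64693344) was the only promoter peak that edgeR called, with 205, 251 and 274 counts in controls, 188 and 189 with KCl at 1 h and 185 and 188 with KCl at 6 h.

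These Cpe promoter changes were -0.37 ± 0.12 at 1 h (edgeR adjusted p = 0.0493) and -0.39 ± 0.14 at 6 h (0.0741). The first was lost against same-time controls (0.128) and without control 1 h B (0.102), KCl 1 h A (0.261) or KCl 1 h B (0.29), and the second without control 1 h B (0.141), control 6 h A (0.107) or B (0.103), or KCl 6 h A (0.417) or B (0.207). With BDNF edgeR called 0 of the 9 promoter peaks at each time, with 0, 1 and 0 at an unadjusted p under 0.05, while DESeq2 called 0, 1 and 0 and limma 0 at each time. With KCl at 1 and 6 h edgeR called 1 and 1, DESeq2 2 and 2 and limma 2 and 3. With KCl at 10 h edgeR and limma called 0 (2 each at an unadjusted p under 0.05) and DESeq2 called 2. The promoter changes ranged from -0.41 to 0.33 with BDNF and from -0.45 to 0.52 with KCl.

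The other promoter peaks had no called change from controls. The Scg2 promoter peak (chr1:79439804-79440334), which holds the full element, gave 64.7, 78.6 and 114 counts in controls, and its changes ran from -0.37 ± 0.21 with BDNF at 6 h (edgeR adjusted p = 0.369) to 0.19 ± 0.21 with KCl at 6 h (0.719). At the Chgb promoter (chr2:132781331-132782075), with the same element, controls gave 183, 212 and 245 counts and no change was beyond -0.12 ± 0.14 (KCl 6 h, 0.721). The Chga promoter peak (chr12:102554672-102555266) gave 42.3, 59.6 and 92.5 in controls and 48.3 and 46.2 with KCl at 10 h, within the control range (-0.45 ± 0.24, 0.329). The Scg5 promoter peak (chr2:113828534-113829415) gave 123, 133 and 152 in controls and 173 and 158 with BDNF at 6 h, above the controls (0.27 ± 0.15, 0.342). The Scg3 promoter peak (chr9:75683612-75684291) gave 200, 238 and 242 in controls and 188 and 170 with KCl at 6 h, below the controls (-0.35 ± 0.13, 0.123), while its RNA change was 0.38. For Cpe, Scg3, Scg5, Chga, Pcsk1 and Pcsk2 some promoter changes were thus about as large as the RNA change of the same comparison or larger. For Scg5 with BDNF at 6 h the RNA change was 0.14 ± 0.08.

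**Figure D5:**
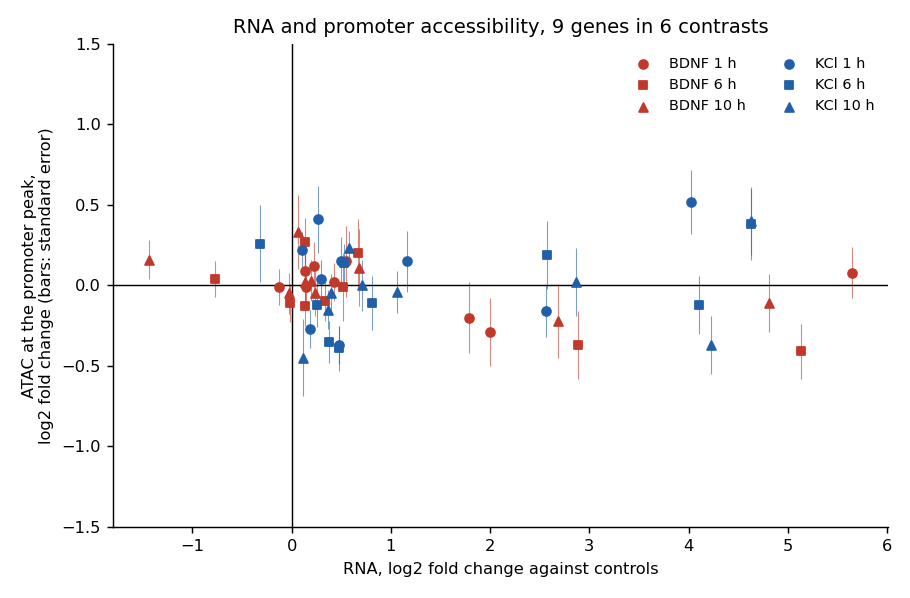
RNA log2 fold change (horizontal axis) and ATAC log2 fold change at the promoter peak (vertical axis, bars of 1 standard error) of the 9 genes in the 6 comparisons with controls, red for BDNF and blue for KCl, with circles, squares and triangles for 1, 6 and 10 h. RNA spans -1.44 to 5.65 while the promoter peaks stay between -0.45 and 0.52.

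Called gains lay away from promoters. An intronic Pcsk1 peak (chr13:75114930-75115098), 25.2 kb inside the gene, gave 1.62, 6.3 and 9.03 counts in controls, 21.5 and 20.4 with BDNF at 1 h and 15.2 and 19.8 with BDNF at 6 h, all above the controls. With KCl at 1 h it gave 6.84 and 2.37, within the control range, although the RNA was higher with KCl. All control values of this peak were under 10, the filter on the mean count of all libraries. It was thus tested only through libraries where it was high, and its gain is not independent of the filter. Its changes with BDNF were 1.75 ± 0.47 (edgeR adjusted p = 0.00325) and 1.50 ± 0.47 (0.0255), and BDNF minus KCl at 1 h was 2.24 ± 0.62 (0.00846). The 1 h call was lost without BDNF 1 h A (0.141) or B (0.146), the 6 h call with controls of the same time (0.268) and without BDNF 1 h B (0.12), BDNF 6 h A (0.133) or B (0.474), and the difference between stimuli without KCl 1 h B (0.226). A Scg2 peak 10.4 kb before the gene (chr1:79450212-79450893) gave 14.7, 43 and 52.9 counts in controls, 75.4 and 65.5 with KCl at 1 h and 90.1 and 55.6 with KCl at 6 h, all above the controls. Its changes were 0.84 ± 0.25 (0.0314) and 0.97 ± 0.27 (0.0177).

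The first of these calls at Scg2 was lost with DESeq2 (0.24), against same-time controls (0.323) and without KCl 1 h A (0.263) or B (0.132). The second was lost with DESeq2 (0.234) and without KCl 6 h A (0.50, 0.661). Both peaks held the AP-1 sequence in the middle 300 bases or, for the shorter one, in its whole length, as did 16.3% of all tested peaks and 3 of the 24 linked peaks. Holding it was a condition for printing a peak, so these matches say nothing about called gains in general. The Cpe peak 48.5 kb inside the gene, called in 4 comparisons, and the peak 29.5 kb before Chgb, called in 2, held 0 in such windows. The Pcsk1 and Scg2 peaks are printed on the plus strand of mm10 with the AP-1 sequence in capitals, the Scg2 peak as chr1:79450403-79450702.
Pcsk1 intron: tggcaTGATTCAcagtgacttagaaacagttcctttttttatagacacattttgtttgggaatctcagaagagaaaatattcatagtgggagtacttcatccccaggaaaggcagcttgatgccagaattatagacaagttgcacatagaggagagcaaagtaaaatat
Scg2 upstream: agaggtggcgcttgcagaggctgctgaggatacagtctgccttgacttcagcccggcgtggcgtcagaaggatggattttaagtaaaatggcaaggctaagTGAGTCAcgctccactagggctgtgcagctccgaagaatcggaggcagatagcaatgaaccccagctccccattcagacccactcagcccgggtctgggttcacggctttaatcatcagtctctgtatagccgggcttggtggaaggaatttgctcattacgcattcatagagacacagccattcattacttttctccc
Within the same windows TGACGTCA was in 3 linked peaks, those at the promoters of Vgf, Scg2 and Chgb, and in 0.999% of all tested peaks. The core TGACGT was in 7 of 24 compared with 5.2%, and the EGR sequence in 3 of 24 compared with 3.87%. Of the 24 linked peaks 9 were promoter peaks, and the shares over all tested peaks are not matched for this. The EGR matches were all in promoter peaks, those of Vgf, Chgb and Pcsk2. The full elements at Scg2 and Chgb are the same sites as in the promoters printed above.

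At Cpe, a peak 48.5 kb inside the gene (chr8:64644164-64645030) gave 46, 59.8 and 74.1 counts in controls. It gave 109 and 104, 116 and 108, and 113 and 79.5 with BDNF at 1, 6 and 10 h and 94.2 and 107 with KCl at 10 h, all above the controls. The changes were 0.84 ± 0.19 (edgeR adjusted p = 3.24e-04), 0.91 ± 0.19 (1.16e-04), 0.67 ± 0.21 (0.0319) and 0.76 ± 0.20 (0.0082), and the 10 h calls were lost against same-time controls (0.434 and 0.268) and without BDNF 10 h A (0.576) or KCl 10 h B (0.204). Another Cpe peak 33.8 kb inside (chr8:64659096-64659505) gave 50.7 and 47 counts with BDNF at 1 h compared with 20 to 38.2 in controls (0.77 ± 0.29, 0.0667). It was not called with controls of the same time (0.213) or without control 6 h A (0.142), BDNF 1 h A (0.313) or BDNF 1 h B (0.222). A peak 35.4 kb inside Cpe (chr8:64657558-64657762) gave 2.91 and 4.51 counts with BDNF at 10 h compared with 3.15 to 19.2 in controls, a change of -1.79 ± 0.67 (0.0931) that was kept in 1 of 5 alternatives (0.204 to 0.564 in the other 4). It was lost without control 1 h A (0.153) or B (0.183), control 6 h B (0.121), control 10 h B (0.11), BDNF 10 h A (0.43) or B (0.249), KCl 1 h B (0.107) or KCl 10 h B (0.1).

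Outside the genes, 2 further peaks changed with KCl. The peak 29.5 kb before Chgb (chr2:132751517-132752000) gave 5.86, 15.4 and 28.5 counts in controls, 24.9 and 40.9 with KCl at 1 h and 47.1 and 20.2 at 10 h, which overlaps with the controls at both times. Its changes were 1.05 ± 0.36 (edgeR adjusted p = 0.0646) and 1.06 ± 0.37 (0.0791). The first was lost with DESeq2 (0.121), with controls of the same time (0.205) and without control 6 h A (0.102), control 10 h A (0.122), KCl 1 h A (0.102) or KCl 1 h B (0.64, 0.646). The second was lost against same-time controls (0.385) and without control 1 h B (0.106), control 6 h A (0.116), control 10 h A (0.14) or KCl 10 h A (0.32, 0.863). The peak 36.4 kb before Scg3 (chr9:75720412-75720574) gave 14.4, 21.4 and 37.8 counts in controls and 13.8 and 3.42 with KCl at 1 h, both below the controls (-1.58 ± 0.47, 0.0289), and the change was -2.79 without KCl 1 h A (0.0211) and -0.79 without KCl 1 h B (0.594).

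Between BDNF and KCl 6 of the 24 linked peaks differed at 1 h, compared with 14.9% of all peaks, 2 at 6 h, compared with 3.63%, and 0 at 10 h, compared with 1.99% (edgeR, with 1 at an unadjusted p under 0.05, DESeq2 0 and 0, limma 0 and 1). The Pcsk1 promoter was more accessible with KCl at 1 h, at 110 and 92.1 counts compared with 79.4 and 44.7 with BDNF (-0.72 ± 0.25, edgeR adjusted p = 0.0503), which was -1.16 without BDNF 1 h A (0.0181) and was lost without BDNF 1 h B (-0.34, 0.616), KCl 1 h A (0.244) or KCl 1 h B (0.111). The intronic Cpe peak was more accessible with BDNF at 1 h (0.68 ± 0.23, 0.0415) and at 6 h (0.88 ± 0.26, 0.0493). The first of these was lost with limma (0.127) and without BDNF 1 h A (0.184), BDNF 1 h B (0.138) or KCl 1 h A (0.299), and the second without BDNF 6 h A (0.24) or B (0.14) or KCl 6 h A (0.275) or B (0.162). The peak before Scg2 was less accessible with BDNF at 6 h (-1.06 ± 0.34, 0.0773), which was lost with DESeq2 (0.383) and limma (0.126) and without BDNF 6 h A (0.173), BDNF 6 h B (0.417) or KCl 6 h A (0.618). The remaining 3 differences at 1 h were 0.37 ± 0.14 at the Scg3 promoter (0.0826), 0.36 ± 0.14 at the Cpe promoter (0.0906) and -1.20 ± 0.45 at a peak 21 kb inside Cpe (0.0698). Each was lost with limma (0.133, 0.164 and 0.148) and with several 1 h libraries left out, the Scg3 one without any of the 4 (0.143 to 0.382), the Cpe promoter (0.61 without BDNF 1 h B, 0.0203) without BDNF 1 h A (0.10, 0.831), KCl 1 h A (0.223) or KCl 1 h B (0.311), and the inner Cpe peak without BDNF 1 h A (0.392), BDNF 1 h B (0.14) or KCl 1 h B (0.519).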

How the data were processed

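Per the labels and the methods of the study, the authors trimmed RNA reads with Trimmomatic, aligned them to mm10 with TopHat2, counted them per GENCODE M16 gene and deposited counts divided by DESeq2 size factors, an expression signal here called normalised read counts. All values (100%) returned whole reads within 0.01. ATAC-seq reads were aligned with Bowtie2, peaks were called with MACS2 per sample and kept where 2 samples shared them, and the deposited values per peak were whole read counts made with DiffBind, although their table is named as normalised. The deposited tables of the authors' own comparisons, with fold changes and p-values, were not used. Whether counting used strand was not stated in what was read here.

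The 9 genes and the lists were chosen with earlier results of these data known. RNA was tested with limma 3.58.1 (trend and robust variance) on log2(normalised count + 1) for 16209 genes with a mean of at least 10, with the 6 controls as 1 level, and ATAC counts with edgeR 4.0.16 (quasi-likelihood, LOESS offsets) for 56383 of 58177 peaks with a mean of at least 10. P-values were two-sided and adjusted by Benjamini-Hochberg with a threshold of 0.1. A fold change on the log2(value + 1) scale understates the change of scarce genes. RNA alternatives were edgeR and DESeq2 1.42.0 on the recovered reads, TMM scaling, a pseudocount of 5, no filter, controls of the same time (a model with 9 levels), a replicate block, a threshold of 0.01 and leaving out each library. For peaks they were TMM, DESeq2, limma on log2 CPM, controls of the same time, a link distance of 20 kb and any peak within 50 kb or in the gene. Scripts were tested on simulated data in R 4.3.3. Genes, starts and promoters came from GENCODE M21, and promoter sequences from RefSeq (GRCm38.p6).

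All 9 genes are named, with the 2 largest called rises and falls of each list, the 2 most alike genes of each member, all promoter peaks and the linked peaks with the largest called gain and fall. Of the genes that this rule names, 2 are not reported here. ATAC letters only name the columns in their order. A few other called peaks were named after their values were seen. The replicate letters were checked for pairing by correlating the deviations of A libraries from their group means. The 36 correlations ran from -0.315 to 0.418 with a median of 0.0649 and 13 above 0.1. They did not settle whether the letters pair the libraries, which were fitted unpaired.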

Additional observations from a re-analysis of the deposited data

Results flagged for a closer look

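Of the 9 genes and 24 linked peaks examined in the 6 controls, 0 genes and 1 peak had a library far from the others, and chance alone gives about 1 in 20 such groups. At the Scg3 promoter peak the library control 1 h A gave 200 counts while the other 5 controls gave 228 to 242, so that this gap was 0.664 of the whole range. Changes between times of one stimulus were picked out where limma called them. With BDNF from 1 to 6 h these were Scg2 at 0.88, Pcsk1 at -1.28 and Pcsk2 at -0.64 on the log2 scale, and from 6 to 10 h Pcsk2 at -0.67. With KCl from 1 to 6 h they were Vgf at 1.53, Scg2 at 1.42, Scg3 at 0.19, Scg5 at 0.32, Chga at -0.60, Pcsk1 at 0.61 and Pcsk2 at 0.43, and from 6 to 10 h Chga at 0.43 and Chgb at 0.80. The change over time itself differed between stimuli, BDNF minus KCl, for Vgf (-2.06), Scg3 (-0.34), Scg5 (-0.41), Chga (0.71), Pcsk1 (-1.89) and Pcsk2 (-1.07) from 1 to 6 h, and for Pcsk2 (-0.72) from 6 to 10 h. Adjusted p-values and the libraries on which these calls rest are given with the results.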

How the results depend on the processing

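Against controls, 1288 of 1350 alternative values of the 9 RNA changes kept their direction and side of the threshold, 46 lost and 10 gained the call, 6 uncalled values moved and 0 reversed. Of 521 values at linked peaks, 436 kept their call and 85 lost it. Run on reads recovered from the values, edgeR called 6430, 7142 and 6684 of all genes for BDNF and 8861, 10779 and 9170 for KCl at 1, 6 and 10 h, where limma called 6546, 7014, 6583, 8863, 10779 and 9274. Whether the letters A and B pair the libraries was not settled. With the replicate block, all 17 RNA counts were as without it (7, 6, 5, 7, 8 and 8 genes for BDNF and KCl at 1, 6 and 10 h against controls). No paired analysis was possible for ATAC because its columns carry no replicate number, so that no pairing was established. Reversed values were those of Chgb, all with the KCl 6 h libraries: BDNF minus KCl at 6 h was -0.48 without B (0.64 without A), KCl 6 h minus 1 h was 0.52 without B (-0.60 without A), and the difference in time change was 0.51 without A (-0.61 without B).

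At an adjusted p below 0.01 the number of genes called was 4 for BDNF 1 h, 4 for KCl 6 h against 1 h and 0 for KCl 10 h against 6 h, which was also 0 with edgeR, and with controls of the same time BDNF 1 h had 4. Leaving out single libraries gave 4 to 8, 4 to 7 and 5 to 6 genes for BDNF at 1, 6 and 10 h, 5 to 8, 8 to 8 and 8 to 8 for KCl, 4 to 7, 6 to 8 and 6 to 7 between stimuli, 3 to 4 and 0 to 1 for BDNF 6 h against 1 h and 10 h against 6 h, 4 to 7 and 0 to 2 for KCl, 5 to 7 and 1 to 3 for the difference in time change, and 0 to 0 between controls. The cause was not tested.

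Counts of linked peaks were less stable. At an adjusted p below 0.01 they were 1 and 0 for BDNF 6 and 10 h, 0, 0 and 1 for KCl 1, 6 and 10 h, and 1 and 0 between stimuli at 1 and 6 h. Within 20 kb (15 peaks) they were 0, 0 and 0 for BDNF, 2 and 0 for KCl 1 and 10 h, and 3 and 1 between stimuli at 1 and 6 h, fewer peaks being tested. With any peak within 50 kb or in the gene (34 peaks), BDNF 1 h had 5 and KCl 1 h had 7. With controls of the same time, which leaves fewer controls, BDNF 6 and 10 h had 1 and 0, and KCl 1 and 10 h had 1 and 1. TMM scaling gave 1 for BDNF 10 h and 7 and 7 for KCl 1 and 10 h. DESeq2 gave 1 for BDNF 10 h, 4 for KCl 10 h and 1 between stimuli at 6 h, and limma gave 6 for KCl 6 h and 2 between stimuli at 1 h. Leaving out single libraries gave 1 to 3, 1 to 2 and 0 to 2 peaks for BDNF, 0 to 5, 1 to 3 and 1 to 3 for KCl, and 1 to 6, 0 to 2 and 0 to 0 between stimuli. Depth ran from 1.24 M to 6.24 M reads in peaks over the ATAC libraries, with 2 per group.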

Other observations

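The markers of cell types in the culture also gave values beyond their sums. Snap25, a synaptic vesicle fusion protein, rose with KCl at 6 h to 3598 and 3612 normalised counts from 1853 to 2427 in controls (log2 fold change 0.76, limma adjusted p = 9.60e-08), and Slc17a6, a vesicular glutamate transporter, rose at the same time (0.69, 8.23e-07), when 3 of the 6 neuron markers rose and 2, Tubb3 and Map2, fell. Tubb3, a neuronal tubulin, fell with KCl at 1 h to 11523 and 9795 from 14838 to 17370 (-0.57, 1.34e-06), where 4 of the 6 rose and only Tubb3 fell. Rbfox3, a neuronal splicing factor, fell with BDNF at 6 h (-0.36, 0.0162), where 3 of the 6 rose and 2 fell. The GABA transporter Slc32a1 and the GABA-synthesising enzyme Gad1 rose with KCl at 6 h by 1.05 (1.24e-05) and 0.93 (6.15e-07). Among glial genes, Gfap (-1.22, 4.89e-05) and Aqp4 (-1.17, 8.66e-05) of astrocytes fell with KCl at 6 h, and Fabp7 of radial glia rose with BDNF at 1 h by 0.20 (0.0686). Of the oligodendrocyte lineage, Mbp rose with BDNF at 6 h to 376 and 353 from 138 to 171 (1.24, 2.10e-08), while Mog (-1.72, 1.00e-09) fell with KCl at 6 h. Cx3cr1 of microglia fell with KCl at 6 h to 4.92 and 6.95 from 21.7 to 35.2 (-2.11, 4.79e-07), and Csf1r rose with KCl at 1 h (0.58, 0.0871), as did the endothelial gene Pecam1 (1.11, 0.00566). Top2a (-1.02, 1.01e-05) and Mki67 (-0.94, 9.21e-04) of proliferating cells fell with KCl at 6 and 10 h. Th, the enzyme that starts catecholamine synthesis, rose with BDNF at 1 h to 25.9 and 25.2 from 4.81 to 14.8 (1.64, 0.00183). The control means of Th and Pecam1 were under 10, the filter on the mean of all libraries. Both were thus tested only through higher stimulated libraries.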
